A study of Homo sapiens with 4 samples.

Results

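The 46 genes described here encode the machinery of DNA replication and mitosis, the cyclins and cyclin-dependent kinases (CDKs) that drive the cell cycle, its transcription factor E2F1, and the CDK inhibitors that brake it. They were chosen by gene symbol, with earlier results of these data known. All 46 symbols matched a row among the 37515 Ensembl genes of the count table. RNA-seq was done on 4 libraries of Caco-2, an established human colon carcinoma line that takes on features of small intestinal enterocytes once confluent, and all 4 libraries are labelled WT or wt (wild type). The cells of both conditions had grown for 15 days in transwells. In 2 libraries, called IFNγ here, 60 ng/ml interferon gamma (IFNγ) had been added to the basal compartment for 3 h, and 2 unstimulated libraries were taken at 0 h, so the cytokine and the elapsed 3 h cannot be told apart. In the wider study the cells stood for the epithelium exposed to cytokines from T cells. Whether the 2 libraries of a condition came from separate cultures is not given in the sources used here, so the tests measure only the spread between these libraries.

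Before a cell copies its DNA, the MCM helicase is loaded onto origins by CDC6 and CDT1 and then activated with CDC45 and GINS, while D- and E-type cyclins with CDK4, CDK6 and CDK2 release E2F factors to switch on replication genes. Cyclin A, cyclin B and CDK1 then carry the cell into mitosis, where kinesins, kinetochore proteins and checkpoint kinases separate the chromosomes. IFNγ is known to slow the growth of many epithelial lines, and CDK inhibitors of the CIP/KIP (CDKN1) and INK4 (CDKN2) families hold cells back from entering S phase. In bulk RNA, fewer cells in a cell cycle phase and less RNA per cell cannot be told apart.

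The libraries held 7171455 to 10365346 counts, and every member had at least 10 counts in each of them, with a lowest count of 13 and a highest of 5060. As a check of the labels, all 10 IFNγ-induced genes listed had higher normalised counts in both IFNγ libraries and 9 of them passed the test described next, with a median log2 fold change of 3.00 over the 10. The 10 epithelial marker genes summed to 5248 and 5683 CPM (counts scaled to a common library size) in the unstimulated libraries and to 6718 and 7399 CPM after IFNγ. The 8 immune markers summed to 15.5 and 18.2 CPM unstimulated and 21.3 and 23.9 CPM after IFNγ, and 7 fibroblast markers to 104 to 199 CPM with the conditions overlapping. The epithelial and immune sums moved with the condition, and their part in the results was not tested.

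Across the 46 members, 15 passed the test, which was edgeR's quasi-likelihood test with a Benjamini-Hochberg adjusted p under 0.05 over all 14820 genes tested. Of these, 4 rose (CCND1, CCND3, CDKN1A and CDKN2B) and 11 fell (POLA1, CDK1, CDK6, BUB1, BUB1B, CENPE, CENPF, KIF11, KIF20A, TOP2A and CDKN1B). The members' share was 8.70% higher and 23.9% lower, against 9.02% higher and 11.0% lower of all genes tested. With an absolute log2 fold change above 1 as well, 1 member was higher (CCND1) and 5 were lower (POLA1, CDK1, CENPE, CENPF and TOP2A), against 2.88% and 4.40% of all genes. The CPM of the 2 conditions did not overlap for 8 members that were higher and 21 that were lower after IFNγ, with 31.6% higher and 30.8% lower among all genes tested. The other 31 members did not pass. By role, the median log2 fold change was 0.02 for 15 replication genes, -0.06 for 13 cyclins, CDKs and E2F1, -0.57 for 13 mitotic genes and -0.17 for 5 CDK inhibitors, beside -0.01 over all genes tested.

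**Figure D1:**
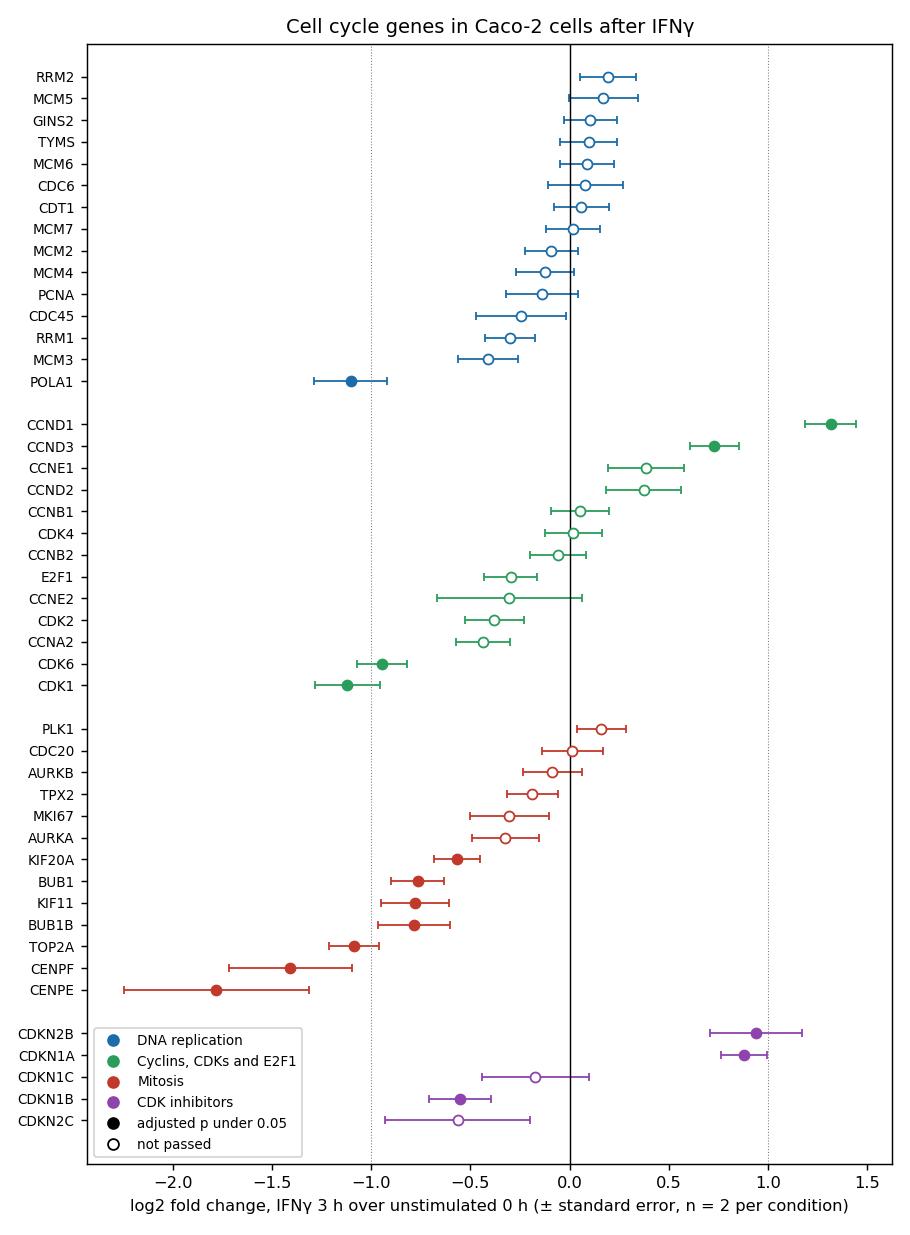
Log2 fold change of each of the 46 members (IFNγ 3 h over unstimulated 0 h, horizontal axis, with its standard error, 2 libraries per condition), grouped by role, where filled points passed an adjusted p under 0.05 and dotted lines mark a log2 fold change of 1 in either direction. Replication genes lie around 0 except POLA1 at -1.10, while 7 of the 13 mitotic genes are filled and on the left, down to CENPE at -1.78.

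Promoters of replication genes and of mitotic genes carry different short elements, and 6 are printed to show them: the mitotic genes TOP2A and KIF11, which fell, and PLK1 and CDC20, which did not pass, then the replication genes POLA1, which fell, and PCNA, which did not pass. Each is the 250 bases before the transcription start in RefSeq on GRCh38.p14, 5′ to 3′ on the gene's strand. TOP2A lies at chr17:40417897-40418146 (minus strand), KIF11 at chr10:92592880-92593129 (plus), PLK1 at chr16:23678639-23678888 (plus), CDC20 at chr1:43358731-43358980 (plus), POLA1 at chrX:24693668-24693917 (plus) and PCNA at chr20:5126623-5126872 (minus). In the first 4, capitals mark CCAAT, bound by NF-Y, and the cell cycle homology region (CHR) core TTTGAA, on either strand. In POLA1 and PCNA, capitals mark only the E2F-type elements TTGGCGC and TTCCCGC on either strand.
TOP2A: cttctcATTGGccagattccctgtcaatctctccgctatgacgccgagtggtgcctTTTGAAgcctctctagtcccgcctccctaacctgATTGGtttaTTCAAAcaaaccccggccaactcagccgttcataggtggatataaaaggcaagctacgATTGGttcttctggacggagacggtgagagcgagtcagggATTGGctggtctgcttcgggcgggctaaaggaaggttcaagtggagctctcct
KIF11: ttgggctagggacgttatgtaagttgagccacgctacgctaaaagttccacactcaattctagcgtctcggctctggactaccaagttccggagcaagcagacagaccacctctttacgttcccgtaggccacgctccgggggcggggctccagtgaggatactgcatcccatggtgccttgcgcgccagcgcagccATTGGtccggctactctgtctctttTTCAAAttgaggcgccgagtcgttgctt
PLK1: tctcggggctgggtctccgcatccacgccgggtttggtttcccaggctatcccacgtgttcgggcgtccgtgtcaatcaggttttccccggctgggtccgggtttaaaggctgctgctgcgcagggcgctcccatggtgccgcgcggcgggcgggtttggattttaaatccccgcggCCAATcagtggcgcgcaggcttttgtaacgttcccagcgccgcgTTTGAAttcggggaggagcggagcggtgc
CDC20: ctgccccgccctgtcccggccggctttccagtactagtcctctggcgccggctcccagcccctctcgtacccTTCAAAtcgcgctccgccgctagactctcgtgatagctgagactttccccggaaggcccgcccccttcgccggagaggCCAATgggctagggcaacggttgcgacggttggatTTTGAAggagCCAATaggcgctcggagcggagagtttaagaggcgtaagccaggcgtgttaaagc
POLA1: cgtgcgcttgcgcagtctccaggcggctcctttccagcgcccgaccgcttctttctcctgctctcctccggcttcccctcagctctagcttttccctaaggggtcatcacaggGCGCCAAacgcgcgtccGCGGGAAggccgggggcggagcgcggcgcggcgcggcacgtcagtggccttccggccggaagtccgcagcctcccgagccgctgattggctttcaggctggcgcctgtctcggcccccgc
PCNA: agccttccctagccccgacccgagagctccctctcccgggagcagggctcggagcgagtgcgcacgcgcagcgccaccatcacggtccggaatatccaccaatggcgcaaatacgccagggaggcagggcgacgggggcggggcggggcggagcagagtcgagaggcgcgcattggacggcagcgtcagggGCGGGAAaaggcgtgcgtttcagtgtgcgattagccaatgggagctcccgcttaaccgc

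A RefSeq promoter window (250 bases before to 50 after the start) matched 37 of the 46 members. An E2F-type element was present in 11 of 13 replication genes (84.6%) and in 0 of 11 mitotic genes, against 11% of 27305 genes with a window. The CHR core showed the opposite distribution, in 7 of 11 mitotic genes (63.6%) and 1 of 13 replication genes (7.69%), against 18.2% of all genes. CCAAT was found in 9 of 11 mitotic genes and 10 of 13 replication genes, against 39.7% of all genes. The 2 printed mitotic promoters whose genes did not pass carry the same elements as the 2 whose genes fell: CDC20 has 2 CHR cores and 2 CCAAT boxes, and PLK1 has 1 of each, with the CHR core starting 29 bases before the start and that of KIF11 28 bases before it. Among mitotic genes with a window, the CHR core was present in 4 of the 7 that fell and 3 of the 4 that did not pass. The letters TTCNNNGAA, the core of the interferon gamma-activated site, were found in 1 member, KIF20A, against 9.38% of all genes, and CDKN1A and CDKN2B held none of the elements searched. These counts describe letters in a window, not bound sites.

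Of the 15 replication genes, POLA1 alone passed the test, and this 6.67% lower was no more than the 11.0% of all genes. POLA1, the catalytic subunit of DNA polymerase alpha, which starts each new DNA strand with primase, gave 20.7 and 24.1 CPM in the unstimulated libraries and 11.3 and 9.41 CPM after IFNγ. Both IFNγ libraries lay below both unstimulated ones, and the log2 fold change was -1.10 ± 0.184 (SE, n = 2 per condition, adjusted p = 0.0074 in edgeR). It kept its call without each library in turn, at -1.25 to -0.98. Per kb of merged exons it was the lowest of the replication genes in unstimulated cells, at 1.44 CPM per kb. PCNA, the sliding clamp of the polymerases, was the highest at 56.1 CPM per kb. The low value of POLA1 rests on a merged exon length of 15547 bases. Without division by length its unstimulated mean of 22.4 CPM lay above that of CDC45, at 8.45 CPM.

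The helicase subunits MCM2 to MCM7 did not pass, with log2 fold changes from -0.41 (MCM3) to 0.17 (MCM5). MCM3 gave 122 and 154 CPM unstimulated and 95.8 and 112 CPM after IFNγ, so its conditions did not overlap, but its log2 fold change of -0.41 ± 0.152 missed the threshold (adjusted p = 0.0991 in edgeR). It was under the threshold without the second IFNγ library (-0.54, adjusted p = 0.0203), with no filter on low counts, and with the trend on GC content and length described further on removed (-0.53, adjusted p = 0.0378). MCM6 gave 121 and 152 CPM before and 144 and 146 CPM after, and the values overlap. The other subunits likewise overlapped between conditions.

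The licensing factors CDC6 and CDT1 lay at log2 fold changes of 0.08 and 0.06, and GINS2, a subunit of the GINS complex, at 0.10. CDC45, the helicase cofactor, gave 8.08 and 8.83 CPM unstimulated and 6.52 and 7.78 CPM after IFNγ. Its conditions did not overlap, but its log2 fold change of -0.25 did not pass (adjusted p = 0.486 in edgeR). The enzymes of nucleotide supply did not pass either: RRM2 and RRM1, the subunits of ribonucleotide reductase, lay at 0.19 and -0.30, and TYMS, thymidylate synthase, at 0.10. RRM1 gave 97.1 and 114 CPM unstimulated and 83.9 and 87.2 CPM after IFNγ (adjusted p = 0.138 in edgeR). PCNA gave 69.2 and 88.1 CPM before and 61.2 and 81.6 CPM after, with the pairs overlapping and a log2 fold change of -0.14 ± 0.182 (adjusted p = 0.624 in edgeR). For these genes the standard errors of 0.127 to 0.228 leave small shifts undetectable with 2 libraries per condition.

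Among the 13 cyclins, CDKs and E2F1, 2 cyclins rose and 2 kinases fell, 15.4% in each direction, near the 9.02% higher and 11.0% lower of all genes. CCND1, cyclin D1, the G1 cyclin that activates CDK4 and CDK6, had the largest rise of the 46 members, from 207 and 225 CPM to 492 and 583 CPM, a 2.49-fold change of the means. Both IFNγ libraries lay above both unstimulated ones, and the log2 fold change was 1.31 ± 0.127 (adjusted p = 0.0015 in edgeR). CCND3, cyclin D3, rose from 52.9 and 57.0 CPM to 87.2 and 94.8 CPM (log2 fold change 0.73 ± 0.123, adjusted p = 0.0078 in edgeR). CCND2, cyclin D2, was scarce at 11.2 to 16.9 CPM and did not pass, at 0.37 ± 0.187 (adjusted p = 0.202 in edgeR). CCND1 lies at chr11:69455924-69469242 in the GRCh37 annotation and its exons overlap those of LTO1 on the other strand. Exons of CCND3 and of CDK6 also overlap those of another gene on the other strand. In all, 19 of the 46 members have exons that overlap another gene on either strand. Whether reads were counted by strand is not given in the sources used here.

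The later cyclins did not pass. CCNE1, cyclin E1, which works with CDK2 at the entry to S phase, lay at 0.38 and CCNE2 at -0.30, the latter on 13 to 28 counts per library. CCNA2, cyclin A2, which acts in S phase and G2, gave 65.7 and 77.5 CPM before and 55.1 and 50.5 CPM after (-0.44 ± 0.137, adjusted p = 0.063 in edgeR), and it passed when scaled by library size only. CCNB1 and CCNB2, the mitotic cyclins B1 and B2, lay at 0.05 and -0.06, with CPM that overlapped between conditions.

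Of the kinases, CDK1 and CDK6 fell and CDK2 and CDK4 did not pass. CDK1, the partner of the B-type cyclins, fell from 144 and 192 CPM to 73.2 and 81.2 CPM, so that the higher IFNγ library stood well below the lower unstimulated one (log2 fold change -1.12 ± 0.162, adjusted p = 0.0046 in edgeR). CDK6, the partner of D-type cyclins, fell from 69.2 and 73.1 CPM to 35.6 and 38.3 CPM (-0.95 ± 0.127, adjusted p = 0.0038 in edgeR), while CDK4, the other partner of those cyclins, lay at 0.02 ± 0.143. CDK2 gave 46.0 and 46.7 CPM before and 32.2 and 39.2 CPM after and did not pass (-0.38, adjusted p = 0.112 in edgeR). In unstimulated cells CDK4 stood at 29.4 CPM per kb and CDK6 at 5.82 CPM per kb.

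E2F1, the transcription factor that the D-type cyclin kinases release from the retinoblastoma protein, gave 41.7 and 45.3 CPM in unstimulated cells and 34.4 and 36.3 CPM after IFNγ. The conditions did not overlap, but the log2 fold change of -0.30 ± 0.135 missed the threshold (adjusted p = 0.162 in edgeR). With the GC and length trend removed it was -0.56 (adjusted p = 0.0247).

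**Figure D2:**
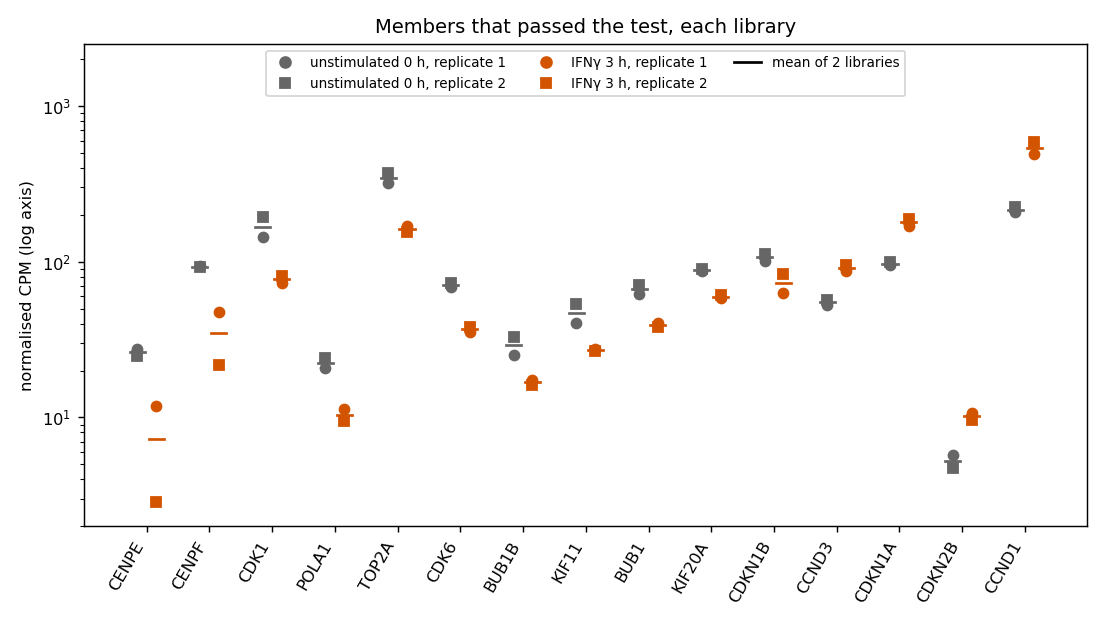
Normalised CPM (log axis) of the 15 members that passed, in each of the 4 libraries, with circles for replicate 1, squares for replicate 2 and a bar for the mean of the 2 libraries of a condition, ordered by log2 fold change. In every gene the IFNγ libraries lie on the same side of both unstimulated ones, and CENPE and CENPF are the genes whose IFNγ libraries stand furthest apart.

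Among the 13 mitotic genes, 7 fell and 0 rose (53.8% lower, against the 11.0% of all genes given above). TOP2A, topoisomerase II alpha, which untangles sister DNA, was the most abundant of those that fell per length (54.0 CPM per kb unstimulated). It went from 318 and 370 CPM to 170 and 154 CPM (log2 fold change -1.08 ± 0.126, adjusted p = 0.0025 in edgeR). No IFNγ library reached the level of either unstimulated library.

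The kinetochore genes CENPE and CENPF had the largest falls of all members. CENPE, a kinesin that captures microtubules at the kinetochore, gave 27.6 and 24.9 CPM unstimulated and 11.8 and 2.87 CPM after IFNγ (-1.78 ± 0.466, adjusted p = 0.0359 in edgeR). CENPF, a large kinetochore and nuclear matrix protein, gave 93.8 and 92.5 CPM before and 47.9 and 21.6 CPM after (-1.41 ± 0.310, adjusted p = 0.0200 in edgeR). For both, the unstimulated libraries were alike and the 2 IFNγ libraries differed from each other more than they did for any other member that fell. The size therefore rests on which IFNγ library is used: without the first, CENPE stood at -3.20 and CENPF at -2.12, and without the second, at -1.18 and -0.98, all still past the threshold. CENPE lost its call without the first unstimulated library (adjusted p = 0.0743) and in DESeq2 (adjusted p = 0.138).

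The spindle checkpoint genes BUB1 and BUB1B fell by less. BUB1 went from 62.1 and 70.6 CPM to 40.2 and 37.8 CPM (-0.76 ± 0.133, adjusted p = 0.0088 in edgeR), and BUB1B, which encodes BUBR1, from 25.3 and 32.9 CPM to 17.5 and 16.1 CPM (-0.78 ± 0.181, adjusted p = 0.0236 in edgeR). In both genes the IFNγ libraries were close to each other and below the unstimulated pair. BUB1B shares exons with the readthrough gene BUB1B-PAK6, so its counts are uncertain. The kinesin KIF11, which pushes spindle poles apart, went from 40.1 and 53.1 CPM to 27.3 and 26.7 CPM (-0.78 ± 0.171, adjusted p = 0.0195 in edgeR). KIF20A, a kinesin of the central spindle and cytokinesis, went from 87.2 and 89.1 CPM to 58.1 and 60.9 CPM (-0.57 ± 0.116, adjusted p = 0.0152 in edgeR). Its exons overlap those of BRD8 and CDC23 on the other strand. Without the second unstimulated library BUB1B (-0.57, adjusted p = 0.0888) and KIF11 (-0.55, adjusted p = 0.0714) lost their calls.

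The other 6 mitotic genes did not pass. PLK1, polo-like kinase 1, gave 72.1 and 75.1 CPM before and 77.2 and 87.1 CPM after (0.16), and CDC20, the activator of the anaphase-promoting complex, 50.1 and 54.1 CPM before and 46.6 and 58.8 CPM after (0.01). With the trend on GC content and length removed these were -0.04 and -0.22, and CDC20 was -0.03 when scaled by library size only. The Aurora kinases AURKA and AURKB lay at -0.32 and -0.09, and TPX2, the activator of Aurora A, at -0.19. AURKA passed without the second IFNγ library (-0.59, adjusted p = 0.0089) and stood at -0.11 without the first (adjusted p = 0.657). MKI67, which encodes the proliferation marker Ki-67, gave 237 and 188 CPM unstimulated and 205 and 140 CPM after IFNγ, so the conditions overlapped and the second library of each was the lower (-0.30 ± 0.198, adjusted p = 0.317 in edgeR). Without the first IFNγ library MKI67 passed (-0.62, adjusted p = 0.0387), and without the second it stood at -0.08.

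The 5 CDK inhibitors differed in direction. CDKN1A, which encodes p21, a target of p53 that binds cyclin-CDK complexes and PCNA, rose from 95.0 and 99.2 CPM to 169 and 188 CPM (log2 fold change 0.88 ± 0.116, adjusted p = 0.0036 in edgeR). It kept its call without each library in turn, at 0.78 to 0.94. CDKN2B, which encodes the INK4 protein p15, rose from 5.74 and 4.76 CPM to 10.6 and 9.69 CPM, on 34 to 109 counts per library (0.94 ± 0.232, adjusted p = 0.0298 in edgeR). CDKN1B, which encodes p27, fell from 101 and 112 CPM to 62.7 and 82.8 CPM (-0.55 ± 0.157, adjusted p = 0.0472 in edgeR).

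Of the inhibitors that passed, CDKN1A held its call in all 13 alternative fits. CDKN2B lost its call in DESeq2 (0.94, adjusted p = 0.0921) and without the first unstimulated library (1.09, adjusted p = 0.058), the second (0.84, adjusted p = 0.0792) or the first IFNγ library (0.86, adjusted p = 0.0922). CDKN1B lost its call with the GC and length trend removed (-0.18, adjusted p = 0.533), under upper quartile scaling (-0.51, adjusted p = 0.0563) and without the first unstimulated (-0.62, adjusted p = 0.0782), the second unstimulated (-0.47, adjusted p = 0.115) or the first IFNγ library (-0.37, adjusted p = 0.143). CDKN2C (p18) gave 2.82 and 3.36 CPM before and 1.75 and 2.46 CPM after and did not pass (-0.56 ± 0.365, adjusted p = 0.314 in edgeR). CDKN1C (p57), at 5.32 to 7.40 CPM, lay at -0.17. The exons of CDKN1A, at chr6:36644237-36655114 in the GRCh37 annotation, overlap those of DINOL on the other strand.

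Base composition moved with these values. Across 14518 tested genes with an annotation, the log2 fold change correlated with the GC content of the merged exons (Spearman's rho 0.447) and with exon length (rho -0.214), as a description over genes of the same 4 libraries. Over the 46 members rho with GC content was 0.580, over the 15 replication genes 0.289, over the 13 cyclins, CDKs and E2F1 0.659 and over the 13 mitotic genes 0.918 (Pearson's r 0.913). The mitotic genes that fell had a median GC content of 40.6% and a median exon length of 6304 bases, against 51.9% and 3266.5 bases for those that did not pass. CENPE, at 34.8% the mitotic gene with the lowest GC content, had the lowest fold change of the list, while CDC20 and PLK1, at 57.6% and 57.1% the highest, had the 2 highest fold changes. The median GC content was 40.4% for the 11 members that fell, 55.0% for the 4 that rose and 50.6% for the 31 that did not pass. MCM6, at 42.4% GC, lay at 0.09 and CDKN2B, at 45.2%, at 0.94. The replicates also differed along length: the second minus the first library correlated with exon length at rho -0.201 after IFNγ and -0.200 unstimulated, and with GC content at 0.070 and -0.216.

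**Figure D3:**
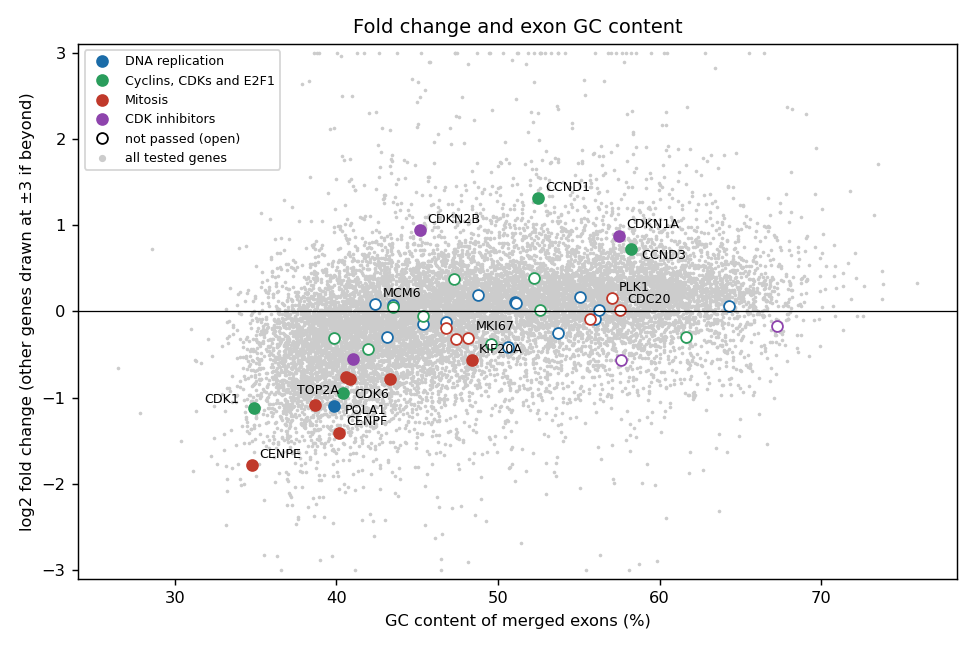
Log2 fold change (vertical axis, genes beyond 3 drawn at the edge) against GC content of the merged exons in percent for the 14518 annotated genes tested (grey) and the 46 members coloured by role, filled where they passed. Members that fell sit between 34.8% and 43.3% GC except KIF20A at 48.4%, and the mitotic genes rise from CENPE at the lower left to PLK1 and CDC20 near 0.

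When the trend on GC content and length was taken out of each library before the test, 4 members were higher, the same 4 as before, and 10 were lower, against 9.66% higher and 6.37% lower of the 14518 genes. Of the 11 members that fell, 8 kept their call: TOP2A (-0.65), CENPF (-0.97), KIF20A (-0.63), BUB1B (-0.63), BUB1 (-0.43), POLA1 (-0.60), CDK1 (-0.54) and CDK6 (-0.50). The falls of CDK1, CDK6, POLA1, BUB1, TOP2A, KIF11, CENPE and CDKN1B shrank by more than 1.5 times on the log2 scale. CENPE (-1.10, adjusted p = 0.111), KIF11 (-0.48, adjusted p = 0.0631) and CDKN1B lost their calls, and MCM3 and E2F1 gained them. Among the mitotic genes 5 were then lower and the median was -0.43. Among the 15 replication genes 2 were lower and the median was -0.09. The medians were -0.02 for cyclins, CDKs and E2F1 and -0.18 for CDK inhibitors, beside 0.02 over all genes tested. CCND1 stood at 1.17, CDKN2B at 1.00, CDKN1A at 0.65 and CCND3 at 0.54. The part of base composition and length in the falls was not tested beyond this comparison.

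**Figure D4:**
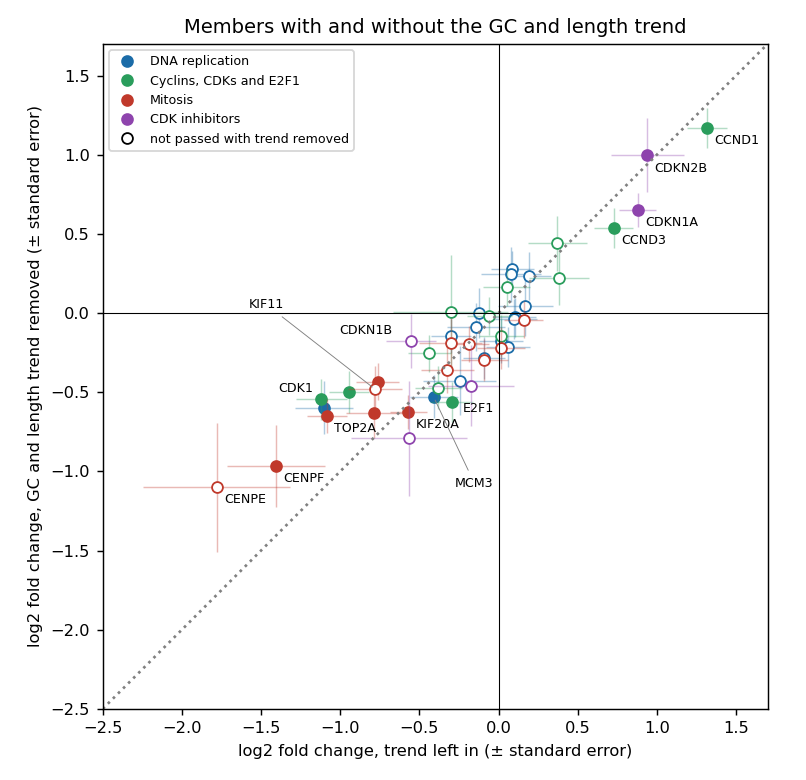
Log2 fold change of the 46 members with the GC and length trend left in (horizontal) and removed (vertical), each with its standard error, filled where the adjusted p with the trend removed was under 0.05, the dotted line marking equal values. The 4 genes that rose stay filled at 0.54 to 1.17, and most genes that fell lie above the dotted line, nearer to 0.

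Other genes of the pathway were counted in lists of the same kind, also chosen with earlier results of these data known. Of 44 further replication genes tested, 11 fell (25%) and 1 rose (2.27%), against 11.0% lower and 9.02% higher of all genes, with a median log2 fold change of -0.20. Those with the largest falls were WDHD1, a replisome scaffold (-1.53 ± 0.246, adjusted p = 0.0066 in edgeR), POLE2, a subunit of polymerase epsilon (-1.37 ± 0.270), and RFC1, the large subunit of the clamp loader (-1.06 ± 0.116). WDHD1 gave 22.9 and 21.0 CPM before and 9.34 and 5.59 CPM after. With the trend removed 6 of the 44 were lower, 5 of them among the 11 that fell, against 6.37% of all genes. FEN1, the flap nuclease that trims Okazaki fragments, was the gene that rose, at 0.61 ± 0.173 (adjusted p = 0.0464 in edgeR). Its exons overlap those of FADS2 on the same strand, so its counts are uncertain. FEN1 lost its call without the first unstimulated library (0.42, adjusted p = 0.210), without the second IFNγ library (0.49, adjusted p = 0.0837) and with the trend removed (0.44, adjusted p = 0.0898).

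Of 47 further mitotic genes, 17 fell (36.2%, against 11.0% of all genes) and 0 rose, with a median of -0.34, and 11 of the 17 fell by more than 1 on the log2 scale. HMMR, a spindle-associated hyaluronan receptor, went from 61.1 and 75.5 CPM to 17.2 and 8.46 CPM (-2.38 ± 0.293, adjusted p = 0.0030 in edgeR). TTK, the checkpoint kinase MPS1, lay at -1.65 ± 0.206 and KIF15, a spindle kinesin, at -1.47 ± 0.208. With the trend removed 13 of the 47 were lower, against 6.37% of all genes, and HMMR stood at -1.96.

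Of 30 further genes of G1/S control, 12 fell (40%, against 11.0% of all genes) and 4 rose (13.3%, close to the 9.02% of all genes), with a median of -0.33. CCNG2, cyclin G2, linked to cell cycle arrest, went from 93.1 and 107 CPM to 17.8 and 21.7 CPM (-2.35 ± 0.157, adjusted p = 4.5e-04 in edgeR), LIN9, a subunit of the DREAM and MuvB complexes, lay at -1.38 ± 0.323 and CDK7, the CDK-activating kinase, at -1.21 ± 0.175. Those that rose most were CDC25A, the phosphatase that activates CDKs (0.97 ± 0.166), E2F6 (0.77 ± 0.151), a repressor of the E2F family, and E2F3 (0.52 ± 0.142), an activator of that family. LIN9 lost its call without the second unstimulated library (-0.95, adjusted p = 0.0881), E2F6 without the first (0.80, adjusted p = 0.0511), POLE2 without the first (-1.36, adjusted p = 0.0582) and E2F3 without any 1 of the 4 (0.43 to 0.58) and in DESeq2 (adjusted p = 0.0989). With the trend removed 6 of the 30 were lower, against 6.37% of all genes.

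Of 12 other targets of p53, 1 rose (8.33%) and 2 fell (16.7%), shares near the 9.02% and 11.0% of all genes. PLK3, a stress-response kinase, rose from 2.92 and 2.80 CPM to 13.4 and 12.3 CPM (2.16 ± 0.236, adjusted p = 0.0020 in edgeR), BTG2, an antiproliferative gene, fell at -0.82 ± 0.154 (adjusted p = 0.0110 in edgeR) and SESN1, a sestrin, at -0.79 ± 0.220 (adjusted p = 0.0445 in edgeR). The other 9 did not pass, and the median was -0.12. SESN1 lost its call without the second unstimulated library (-0.46, adjusted p = 0.191), without the first IFNγ library (-0.79, adjusted p = 0.0574) and with the trend removed (-0.46, adjusted p = 0.164). Caco-2 is known to carry an inactivating change in p53. The activity of p53 was not measured, and its part in these changes was not tested.

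**Figure D5:**
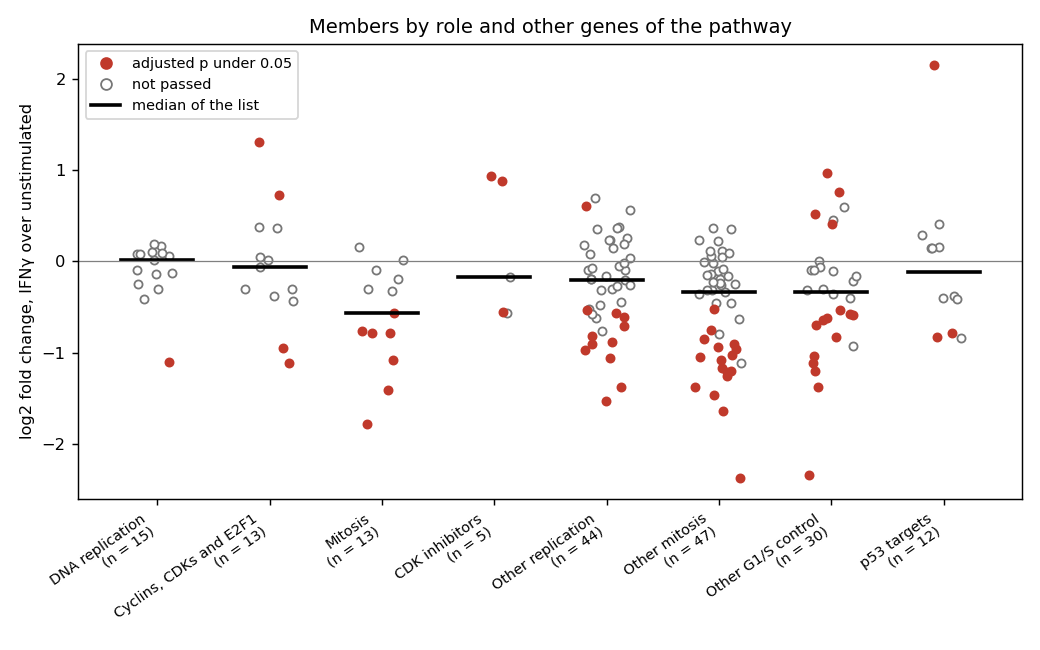
Log2 fold change of each gene (points, filled where the adjusted p was under 0.05) in the 4 role groups of the members and in 4 further lists, with the list's median as a bar. The medians run from -0.57 for the mitotic members to 0.02 for the replication members, and no mitotic gene of either list is filled above 0.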

How the data were processed

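Reads of 4 Caco-2 RNA-seq libraries had been counted per Ensembl gene by the authors, and the deposited values are these raw counts. The submitters' processing notes name HISAT 0.5.1 and HTSeq 0.6.1p1. The genome build, annotation and strand setting of the counting are not given in the sources used here. All 4 libraries and columns were used, grouped by the labels.

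Symbols were matched to 36212 of 37515 identifiers (96.5%). Exon GC content, length, overlaps and gene positions come from GENCODE release 44 on GRCh37, and promoter windows from RefSeq on GRCh38.p14. The 2 conditions were compared with edgeR 4.0.16 (R 4.3.3) on counts with TMM scaling, filterByExpr and the quasi-likelihood test, with Benjamini-Hochberg adjusted p under 0.05 over 14820 genes. CPM values use TMM library sizes, and standard errors were back-calculated from the log2 fold change and its F statistic. All 46 members and every gene of the 4 further pathway lists with a row passed the filter, and UHRF1, on the list of other replication genes, was not analysed here. For the trend alternative, a loess on GC content and log2 length (span 0.5) was removed from each library as an offset. Other scalings, filters, DESeq2 1.42.0, a replicate block, stricter thresholds and leaving out each library were tried, and the fits were tested on simulated data. No set test was run.

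Values in each library were given for members that passed, for E2F1, PCNA, MKI67, CCND1 and CDKN1A, and for the 3 members of each role with the largest absolute log2 fold change. Of each further list, the 3 largest changes in each direction among those that passed were named. Per-library values and DESeq2 or leave-one-out values given for further genes, and the promoters printed, were chosen after the values were seen. The members and lists were chosen with earlier results of these data known. With 2 libraries per condition, counting error and library spread limit what could be called.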

Additional observations from a re-analysis of the deposited data

How the results depend on the processing

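With 2 libraries per condition, no alternative turned a member that passed to the other direction, but small shifts could not be called. Over the members and the further genes named, 712 gene values in 13 alternatives kept direction and side of the threshold, 30 lost and 20 gained a call, and 42 changed sign, all of them in members that had not passed. The cause of these changes was not tested, except where fewer libraries or a stricter threshold were used by construction.

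The counts of members called were 4 higher and 11 lower. Leaving out 1 library gave 3 to 4 higher and 8 to 13 lower, an adjusted p under 0.01 gave 5 lower, and the added fold threshold gave 1 higher and 5 lower. The labels do not say that the replicate numbers pair the libraries, and same-numbered libraries deviated together with a correlation of 0.415 over 14820 genes. With the replicate block 17 members were lower, the 6 added being MCM3, RRM1, CCNA2, CDK2, AURKA and MKI67 (MKI67 at -0.32, adjusted p = 0.0197). For further replication genes the block gave 5 higher and the trend removed with the block 4, for further mitotic genes the block gave 3 higher, and for p53 targets 3 higher and 4 lower (3 higher also with the trend removed with the block). The block changed no other count of these lists by over 1.5 times. Over all genes tested, 1337 were higher and 1626 lower, against 2596 and 2892 with the block, 711 and 1057 without the first unstimulated library, and 1402 and 925 with the trend removed.

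Further replication genes: 1 higher became 2 under upper quartile scaling, 3 without a filter on low counts, 0 with the trend removed, 0 with the fold threshold and 0 to 1 without a library, and 11 lower became 6 with the trend removed, 3 with the fold threshold and 7 to 11 without a library. Further mitotic genes: 17 lower became 11 with the fold threshold. G1/S control: 4 higher became 2 in DESeq2, 0 with the fold threshold and 1 to 2 without a library, and 12 lower became 6 with the trend removed, 5 with the fold threshold and 5 to 11 without a library. p53 targets: 1 higher became 3 with the trend removed, and 2 lower became 0 with the fold threshold and 1 to 3 without a library. Role medians without a library ran from -0.17 to 0.068 for cyclins, CDKs and E2F1 and from -0.36 to 0.095 for CDK inhibitors.

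Sign changes with the trend removed, and with the replicate block added, were MCM4 (0.0010 and 0.0078), MCM7 (-0.18 and -0.17), CDT1 (-0.21 and -0.22), GINS2 (-0.027 and -0.026), TYMS (-0.038 and -0.038), CCNE2 (0.0049 and 0.0032), CDK4 (-0.14 and -0.13), PLK1 (-0.041 and -0.044) and CDC20 (-0.22 and -0.23). With library size only they were MCM7 (-0.026), CDK4 (-0.022) and CDC20 (-0.030). Without a library, signs changed within the ranges of MCM2 (-0.22 to 0.058), MCM4 (-0.28 to 0.057), MCM5 (-0.054 to 0.35), MCM6 (-0.070 to 0.27), MCM7 (-0.11 to 0.16), PCNA (-0.38 to 0.056), CDC6 (-0.11 to 0.29), CDT1 (-0.098 to 0.18), CCNB1 (-0.098 to 0.23), CCNB2 (-0.20 to 0.068), CDK4 (-0.15 to 0.21), AURKB (-0.22 to 0.063), CDC20 (-0.18 to 0.17) and CDKN1C (-0.36 to 0.095).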
